A study of Mus musculus with 4 samples.

Results

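The transcripts described here encode 8 S100 proteins (S100a1, S100a4, S100a6, S100a8, S100a9, S100a10, S100a11 and S100a13) and the annexins A1 and A2 (Anxa1 and Anxa2). These 10 genes were picked by exact gene symbol from a table of 24589 entries measured by RNA-seq in mouse acute myeloid leukemia cells. All 10 were among the 11837 genes that reached at least 1 TPM (a transcript abundance corrected for length and scaled to a fixed library total) in at least 2 of the 4 libraries. The cells had been grown out from hematopoietic stem cells of the bone marrow, and both groups carried NRAS and AE9a, a truncated AML1-ETO fusion that drives leukemia in mice. One group came from wild-type (WT) mice and the other from Tet2-/- mice, in which exons 8 to 10 of Tet2, the gene of a dioxygenase that oxidises 5-methylcytosine, were missing. Each group had 2 libraries (n = 2), and those of the Tet2-/- group are called knockout-labelled below. Both groups grew in RPMI medium with the cytokines SCF (50 ng/ml), IL-3 (10 ng/ml) and IL-6 (10 ng/ml), under selection with G418 (1 mg/ml) and puromycin (2 µg/ml). Strain, age, the number of clones and whether replicates were separate cultures are not stated in the sources used here, so every p below is set against a spread between libraries that may be technical only.

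S100 proteins are small calcium-binding proteins with paired EF-hand loops, and most act as dimers that open a binding face for a partner when calcium rises. S100a8 and S100a9 join into calprotectin, which fills the cytosol of neutrophils and monocytes, sequesters zinc and manganese from microbes, and signals to Toll-like receptor 4 when released. Annexins bind acidic membrane lipids in the presence of calcium, and Anxa2 and Anxa1 are the classical partners of S100a10 and S100a11. In the myeloid lineage calprotectin serves as a sign of granulocyte and monocyte maturation and of inflammation.

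The labelled cell type was checked first. Transcripts of blood and myeloid progenitor cells were present in all 4 libraries, among them Ptprc (181.98 to 211.1 TPM), Cd34 (189.3 to 270.2 TPM), Mpo (731 to 1037 TPM) and Kit (5.10 to 8.80 TPM). Of 9 measured markers of these cells those 4 rose, Elane (-1.28) and Itgam (-0.39) fell and 3 did not pass, and Flt3 was below the filter. Under spike-in scaling Ptprc was at 0.055 and did not pass, while Cd34, Mpo and Kit still rose. Of 6 measured mast cell and basophil markers 4 fell: Tpsb2 (-1.63), Cma1 (-1.50), Hdc (-1.09) and Ms4a2 (-1.08). Of the others Cpa3 (1302 to 1667 TPM) rose and Mcpt8 (266 to 278 TPM) did not pass. Among 3 eosinophil markers 2 fell, Prg2 (-2.80) and Ear2 (-1.20, at 1.3 TPM or lower), and 1 rose, Siglecf (0.45). Fibroblast and stromal markers summed to 6.28 and 6.73 TPM in WT and to 9.20 and 8.98 TPM in the knockout-labelled libraries, nearly all of it Pdgfrb. All 4 B cell and all 6 T and NK cell markers were below 1 TPM in every library, and of 5 erythroid markers only Hba-a1 passed the filter, at 0 to 16.9 TPM. Of 6 epithelial markers Krt5 and Krt14 were listed at 0, Cdh1 fell from 39.0 and 40.3 TPM to 12.6 and 12.2 TPM (log2 change -1.60) and Epcam rose (0.82). Of 4 endothelial markers Vwf fell (-0.66), Tek did not pass and the others were below the filter. Over all genes 11.6% were called lower and 18.9% higher. The part of these markers in the results below was not tested. Tet2 itself had 35.05 and 39.95 TPM in WT against 53.53 and 52.79 TPM in the knockout-labelled libraries, a value over the whole gene that cannot check a deletion of 3 exons, so each direction below is drawn by the labels. Read depth cannot be recovered from TPM and is unknown.

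Of the 10 members, 7 fell, 2 rose and 1, Anxa2, did not pass at an adjusted p under 0.05 (limma on log2(TPM + 1), Benjamini-Hochberg over all 11837 genes). The same fit called 30.5% of all genes, 11.6% as lower and 18.9% as higher. The groups did not overlap for any of the 10 members, as for 68.6% of all genes. The median log2 change of the members was -0.26, beside 0.04 over all genes. Only S100a8 and S100a9 changed by close to 2-fold, and the other 8 members had log2 changes between -0.37 and 0.34. Leaving out either knockout-labelled library, replicate 1 or replicate 2, 5 members were called in each case: S100a4, S100a8, S100a9, S100a10 and Anxa1. With scaling to the spike-in entries, which shifts the median of all genes by -0.11, 5 were called: S100a8, S100a9, S100a11, S100a13 and Anxa1, all lower. That scaling called 17.8% of all genes. Those entries held 2.98% and 3.30% of all TPM in the WT libraries against 3.41% and 3.39% in the knockout-labelled ones.

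**Figure D1:**
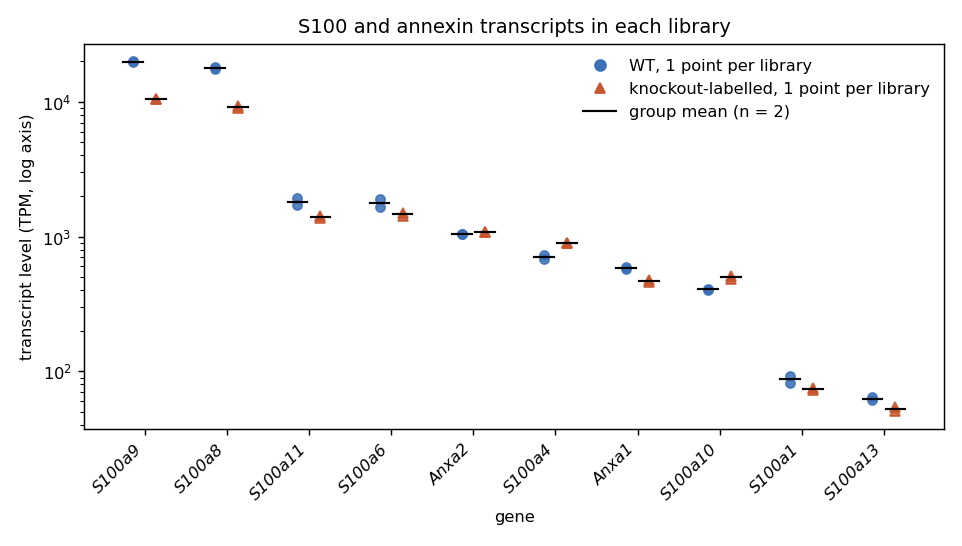
Level of each member in each library, in TPM on a log axis, with circles for WT, triangles for knockout-labelled libraries and a black bar for the mean of the 2 libraries. S100a9 and S100a8 stand at 8948 TPM or higher in every library, the other members at 1915 TPM or lower, and the groups are separate for each gene.

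The calprotectin subunits were the leading members in level and in change. S100a9, the larger subunit, had 19879.7 and 19631 TPM in WT and 10484 and 10429 TPM in the knockout-labelled libraries. S100a8, the smaller subunit, had 18185.5 and 17581 TPM in WT and 8948 and 9289 TPM in the knockout-labelled libraries. For both genes the libraries of a group lay close together and the groups lay far apart. S100a9 fell by 0.92 on the log2 scale (SE 0.037, adjusted p = 1.6e-04, limma), a drop of the mean to 0.529 of the WT level, and S100a8 fell by 0.97 (SE 0.042, adjusted p = 1.9e-04, limma), to 0.510 of WT. Among all genes 1.61% had a lower change than S100a8 and 1.76% a lower change than S100a9. By level among mouse genes S100a9 ranked 2 in both WT libraries and 4 and 3 in the knockout-labelled libraries.

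Calprotectin transcripts made up 3.81% and 3.72% of all TPM in WT against 1.94% and 1.97% in the knockout-labelled libraries. Within the summed level of the 10 members, S100a8 and S100a9 held 85.4% and 85.3% in the WT libraries against 76.7% and 76.8% in the knockout-labelled libraries. The other 8 members together summed to 6519 and 6420 TPM in WT and to 5906 and 5943 TPM in the knockout-labelled libraries, a difference of 1.09-fold. Because TPM share a fixed total, a fall of genes this abundant moves every other value upward. With TPM rescaled to a total that leaves out the members and 12 neutrophil markers, S100a9 changed by -0.95, and S100a8 kept its call too. Quantile scaling, which gives every library the same value at a given rank, reduced the change to -0.46 for S100a8 (adjusted p = 0.0060, limma) and ended the call of S100a9 (-0.38, adjusted p = 0.069, limma). This scaling acts on rank by construction, and both genes stayed within the first 5 ranks in all 4 libraries.

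The subunits kept nearly the same ratio to each other. The ratio of S100a8 to S100a9 TPM was 0.915 and 0.896 in the WT libraries against 0.853 and 0.891 in the knockout-labelled libraries. The log2 difference of the ratio between groups was -0.05, close to the spread within a group (0.03 in WT and 0.06 in the knockout-labelled group; exact permutation test, two-sided, p = 0.333). That p is the smallest that 2 libraries against 2 can give, a limit that applies to each ratio below.

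Neutrophil maturation markers moved with calprotectin. All 12 fell (log2 changes from -2.31 to -0.43, median -1.38), and their summed level was 9649 and 9859.9 TPM in WT and 4506 and 4527 TPM in the knockout-labelled libraries, 2.16-fold lower, beside 1.92-fold for S100a8 and S100a9 together. None of the 12 was at 0 in any library. Over all genes 11.6% were called lower and 18.9% higher, and the marker lists were chosen with earlier results of these data known. Monocyte and macrophage markers summed to 13941 and 13687 TPM in WT and to 9085 and 8967 TPM in the knockout-labelled libraries, with 3 higher, 4 lower and 2 not called of 9 measured. In bulk RNA fewer maturing cells and less RNA per cell cannot be told apart, and the part of these markers in the fall of S100a8 and S100a9 was not tested.

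Among 10 transcription factors reported to act on S100a8 and S100a9, 5 fell, 2 rose and 3 did not pass, with a median log2 change of -0.19. Among all genes 11.6% were called lower and 18.9% higher. Cebpe, the C/EBP factor of late granulocyte maturation, had 144.3 and 137.4 TPM in WT and 92.7 and 94.1 TPM in the knockout-labelled libraries (log2 change -0.59, SE 0.039, adjusted p = 5.9e-04, limma). Gfi1, a repressor that granulocyte development needs, changed by -0.44, Cebpd by -0.46 and Spi1, which encodes the myeloid master regulator PU.1, by -0.26 (adjusted p = 0.0031, 0.0034 and 0.0041, limma). The Spi1 call was lost without knockout-labelled replicate 2 (adjusted p = 0.055). Klf5 (-0.74) also fell, and Cebpa (0.15) and Irf8 (0.35), factors of granulocyte and of monocyte commitment, rose, all 3 named after their values were seen. The Cebpa call was lost without any 1 of the 4 libraries and that of Irf8 without knockout-labelled replicate 2 (adjusted p = 0.063). Neither passed under spike-in scaling, at 0.04 and 0.24.

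Of 8 measured receptors and co-receptors reported for calprotectin and other S100 proteins, 2 fell, 1 rose and 5 did not pass (median -0.15). The same fit called 30.5% of all genes. The scavenger receptor family member Cd68 changed by -0.52 and the sialic acid receptor Cd33 by -0.22 (adjusted p = 0.0023 and 0.017, limma), and basigin (Bsg) by 0.17 (adjusted p = 0.014). The Cd33 and Bsg calls were lost without knockout-labelled replicate 1 (adjusted p = 0.11 and 0.12) or replicate 2 (adjusted p = 0.10 and 0.12), and Bsg was at 0.05 with spike-in scaling. Tlr4, the signalling receptor, had 30.9 and 34.9 TPM in WT and 27.7 and 28.4 TPM in the knockout-labelled libraries, and a log2 change of -0.22 (adjusted p = 0.057). It passed without WT replicate 1 (-0.30, adjusted p = 0.021) and under 7 other settings, among them trimmed-mean scaling (-0.26, adjusted p = 0.024) and spike-in scaling (-0.33, adjusted p = 0.014).

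**Figure D2:**
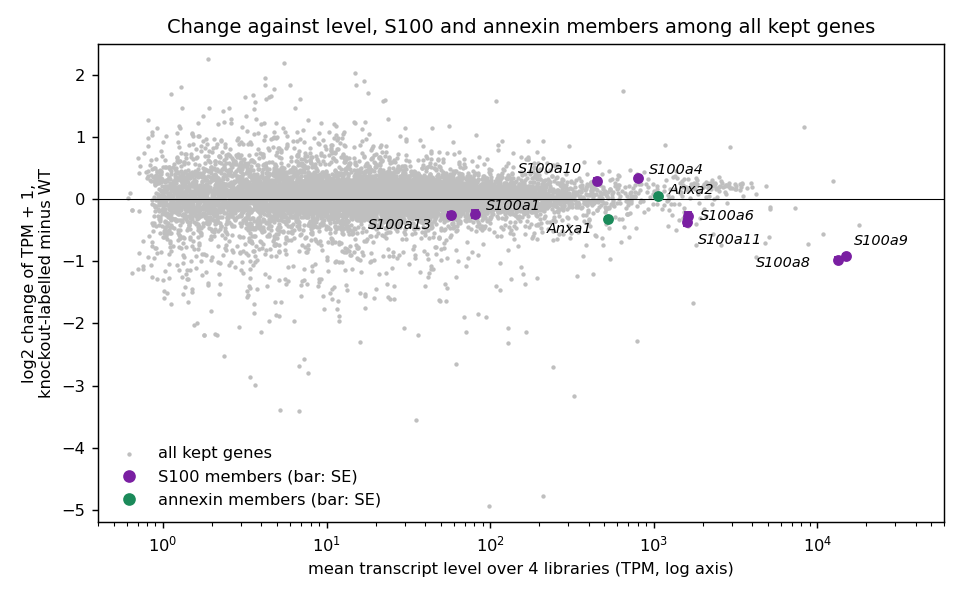
Log2 change of TPM + 1, knockout-labelled minus WT, against the mean level over the 4 libraries in TPM on a log axis, for all kept genes (grey) with S100 members in purple and annexin members in green (bars: SE). S100a8 and S100a9 lie near -1 at the right end of the level axis, S100a4 and S100a10 lie above 0, Anxa2 lies close to 0, and the other members lie between -0.37 and -0.24.

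S100a10 and Anxa2, which form a tetramer of 2 copies each at the inner face of the plasma membrane, were called differently: S100a10 rose and Anxa2 did not pass. S100a10, the light chain, which has lost calcium binding, had 408.2 and 402.8 TPM in WT and 510.5 and 488 TPM in the knockout-labelled libraries. It rose by 0.30 on the log2 scale (SE 0.035, adjusted p = 0.0035, limma), with both knockout-labelled libraries above both WT libraries. With spike-in scaling the change was 0.18 and did not pass (adjusted p = 0.17). Anxa2, the heavy chain, had 1042 and 1037 TPM in WT and 1078.3 and 1077.9 TPM in the knockout-labelled libraries. Its log2 change of 0.05 (SE 0.029) did not pass (adjusted p = 0.23, limma), and it was -0.06 with spike-in scaling. The ratio of S100a10 to Anxa2, which a constant factor per library cannot move, was 0.392 and 0.388 in the WT libraries against 0.473 and 0.453 in the knockout-labelled libraries. The log2 difference of 0.25 was larger than the spread within a group (0.01 and 0.06; exact permutation test, two-sided, p = 0.333).

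The S100a10 and Anxa2 complex is known for gathering plasminogen and its activators at the cell surface. In these cells plasminogen (Plg) was listed at 0 in all 4 libraries, and its tissue activator Plat did not exceed 0.05 TPM. Other genes of this system fell. Plaur, the receptor of urokinase, had 326.4 and 324.6 TPM in WT and 228.0 and 228.7 TPM in the knockout-labelled libraries (log2 change -0.51, SE 0.029, adjusted p = 4.4e-04, limma). Urokinase (Plau) changed by -0.19, the plasminogen receptor Plgrkt by -0.17 and the inhibitor Serpinb2, named after its values were seen, by -0.18 (adjusted p = 0.019, 0.020 and 0.048, limma). The falls thus include an activator, receptors and an inhibitor. The Plaur call held under every alternative run. Leaving out either knockout-labelled library, the calls of Plau, Plgrkt and Serpinb2 were lost (adjusted p from 0.086 to 0.22). Those of Plau and Plgrkt were also lost without WT replicate 1 (adjusted p = 0.059 and 0.055), and that of Serpinb2 without WT replicate 2 (-0.12, adjusted p = 0.080).

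S100a11 and Anxa1, a calcium-dependent pair, both fell. S100a11 had 1709 and 1915 TPM in WT and 1384 and 1411 TPM in the knockout-labelled libraries, with a wider spread between the WT libraries. It fell by 0.37 (SE 0.058, adjusted p = 0.0085, limma), a call lost without knockout-labelled replicate 1 (adjusted p = 0.075) or replicate 2 (adjusted p = 0.063). Anxa1, an anti-inflammatory annexin induced by glucocorticoids, had 577.9 and 592 TPM in WT and 474.4 and 463.3 TPM in the knockout-labelled libraries. It fell by 0.32 (SE 0.032, adjusted p = 0.0023, limma) and passed under all 15 alternatives run, with adjusted p up to 0.040. The ratio of S100a11 to Anxa1 was 2.96 and 3.24 in the WT libraries against 2.92 and 3.05 in the knockout-labelled libraries. These ratios overlapped between groups (log2 difference -0.05, exact permutation test, two-sided, p = 0.667).

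Formyl peptide receptors, through which released Anxa1 acts, fell too. Fpr1 had 41.93 and 45.01 TPM in WT and 21.26 and 19.95 TPM in the knockout-labelled libraries (log2 change -1.04, SE 0.057, adjusted p = 3.8e-04, limma). Fpr2, the receptor best known for Anxa1, had 16.66 and 17.69 TPM in WT and 11.16 and 13.15 TPM in the knockout-labelled libraries (-0.47, SE 0.087, adjusted p = 0.014). The Fpr2 call was lost without knockout-labelled replicate 1 (-0.36, adjusted p = 0.059). The other 3 genes of the list, Fpr3, Fpr-rs3 and Fpr-rs4, were listed at 0 in all 4 libraries.

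S100a4 and S100a6, which lie on either side of S100a5 on chromosome 3, went in opposite directions. S100a4, which binds non-muscle myosin and is linked to cell motility, had 726.5 and 687 TPM in WT and 898.5 and 893 TPM in the knockout-labelled libraries. It rose by 0.34 (SE 0.038, adjusted p = 0.0029, limma), with the knockout-labelled libraries close together above WT. With spike-in scaling its change was 0.23 and did not pass (adjusted p = 0.15). S100a6, also called calcyclin, had 1898 and 1642 TPM in WT and 1431 and 1487 TPM in the knockout-labelled libraries. It fell by 0.28 (SE 0.072, adjusted p = 0.038, limma), and its WT libraries differed by more than the nearest libraries of the 2 groups. The S100a6 call was lost under 6 alternatives, among them leaving out knockout-labelled replicate 1 (-0.25, adjusted p = 0.19) or replicate 2 (-0.30, adjusted p = 0.13). Without WT replicate 1 its change was -0.17 and still passed.

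S100a1, best known from heart and muscle, and S100a13, which takes part in the release of proteins that lack a signal peptide, were the least abundant members. S100a1 had 92.67 and 81.85 TPM in WT and 75.28 and 72.35 TPM in the knockout-labelled libraries. It fell by 0.24 (SE 0.065, adjusted p = 0.045, limma), the weakest call among the members. That call was lost under 7 of 15 alternatives, among them leaving out WT replicate 1 (-0.15, adjusted p = 0.082), knockout-labelled replicate 1 (adjusted p = 0.14) or replicate 2 (adjusted p = 0.20). S100a13 had 64.3 and 61.2 TPM in WT and 54.4 and 50.6 TPM in the knockout-labelled libraries. It fell by 0.25 (SE 0.051, adjusted p = 0.018, limma), a call lost without WT replicate 1 (adjusted p = 0.062), knockout-labelled replicate 1 (adjusted p = 0.054) or replicate 2 (adjusted p = 0.11).

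Of 14 measured intracellular partners of S100 proteins and annexins, 6 rose, 0 fell and 8 did not pass (limma; median 0.08). Over all genes 18.9% were called higher and 11.6% lower, and the median was 0.04. Ahnak, the giant scaffold bound by S100a10 and Anxa2, had 21.3 and 20.4 TPM in WT and 27.0 and 26.1 TPM in the knockout-labelled libraries (log2 change 0.34, SE 0.049, adjusted p = 0.0067). Myh9, the myosin heavy chain bound by S100a4, changed by 0.13, Tpm1, a tropomyosin, by 0.16 and Sugt1, a co-chaperone that binds S100a6, by 0.19 (adjusted p = 0.027, 0.021 and 0.027, limma). This count depended on scaling: with trimmed-mean scaling Ahnak and Tpm1 rose and Capn1 fell, and with spike-in scaling no gene passed. Leaving out knockout-labelled replicate 1 no partner passed, and leaving out replicate 2 Ahnak alone did. Leaving out WT replicate 1, 3 passed, and without the variance trend Ahnak alone did.

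Of the S100 members 6 lie in a single cluster on chromosome 3 from 90511034 to 90695721 in GRCm38, a span of 184.7 kb. GENCODE annotates 16 genes there, of which 12 are in the table, all S100 genes, and 7 passed the filter on low values. S100a1 and S100a13 are transcribed away from each other with 42 bases between them, and both fell by 0.24 and 0.25. S100a4, S100a5 and S100a6 follow each other on the plus strand, 2.48 kb and 1.10 kb apart. S100a5, which is not a member, rose with S100a4 (log2 change 0.32, adjusted p = 0.029, limma) while S100a6 fell. That S100a5 call, at 5.68 to 7.71 TPM, was lost when any 1 of the 4 libraries was left out (adjusted p from 0.074 to 0.15). S100a8 and S100a9 close the cluster 22.6 kb apart on opposite strands, and S100a7a, which lies 10.3 kb before S100a8, did not exceed 0.37 TPM in any library. The genes of the cluster that rose, S100a4 and S100a5, thus lie between genes that fell. S100a11 and S100a10, 2.82 Mb further along chromosome 3 and 28.8 kb apart, also went in opposite directions. Anxa1 lies on chromosome 19 (20373428 to 20390944, minus strand) and Anxa2 on chromosome 9 (69453620 to 69491795, plus strand). The 8 S100 genes are short, with 3 exons in the first annotated transcript, or 4 in that of S100a13, and the annexins have 13.

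**Figure D3:**
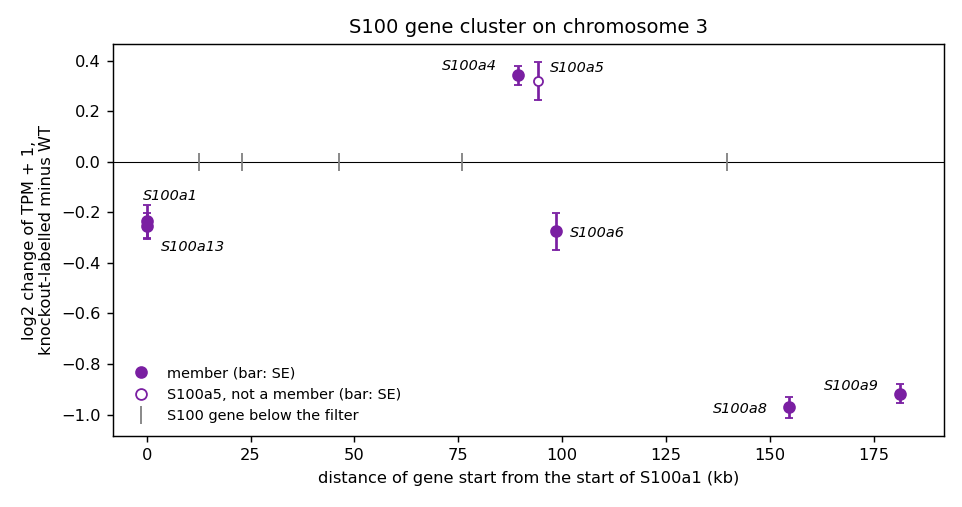
Log2 change of TPM + 1, knockout-labelled minus WT, of the S100 genes of the chromosome 3 cluster against the distance of their start from that of S100a1 in kb (bars: SE). S100a8 and S100a9 lie near -1 at the right end, S100a4 and S100a5 lie above 0 next to S100a6 below 0, and grey ticks mark S100 genes below the filter.

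Sequences upstream of 4 of these genes are shown because S100a8 and S100a9 fell together while the nearby S100a4 and S100a6 diverged. They come from RefSeq on GRCm38.p6, run 5′ to 3′ on the gene's own strand, and end before the first base that RefSeq or GENCODE places in the transcript. Capitals mark matches to the motifs searched. The regions are chr3:90668821-90668977 (plus strand), chr3:90695722-90695971 (minus strand), chr3:90603520-90603769 (plus strand) and chr3:90612644-90612881 (plus strand).
S100a8: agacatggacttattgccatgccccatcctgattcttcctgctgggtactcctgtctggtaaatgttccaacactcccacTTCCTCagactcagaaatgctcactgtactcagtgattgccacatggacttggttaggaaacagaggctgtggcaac
S100a9: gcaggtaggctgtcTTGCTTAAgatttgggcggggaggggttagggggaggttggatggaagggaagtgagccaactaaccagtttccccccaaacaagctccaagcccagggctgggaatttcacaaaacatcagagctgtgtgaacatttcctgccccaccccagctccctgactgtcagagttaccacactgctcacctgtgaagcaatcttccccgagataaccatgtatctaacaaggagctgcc
S100a4: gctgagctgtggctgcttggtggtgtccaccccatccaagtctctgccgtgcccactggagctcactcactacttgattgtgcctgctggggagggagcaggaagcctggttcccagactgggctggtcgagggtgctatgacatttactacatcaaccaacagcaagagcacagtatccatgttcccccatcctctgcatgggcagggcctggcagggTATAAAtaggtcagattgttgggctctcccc
S100a6: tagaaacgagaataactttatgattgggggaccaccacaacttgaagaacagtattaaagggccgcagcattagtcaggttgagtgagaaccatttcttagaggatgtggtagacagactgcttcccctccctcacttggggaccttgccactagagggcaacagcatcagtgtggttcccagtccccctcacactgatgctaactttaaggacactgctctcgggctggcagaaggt

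Motifs were searched on both strands in the 250 bases before the RefSeq start of 9 of the 10 members, those with an entry, which leaves out S100a10. The motifs were TTGCNNAA for C/EBP factors, GAGGAA for PU.1, TTCNNNGAA for STAT factors, TGANTCA for AP-1 and TATAAA for the TATA box, none of which contains another. They occur in 9.56%, 23.3%, 7.02%, 6.75% and 12.4% of the 32851 windows of this length. S100a8 had a match to the PU.1 motif 170 and another 36 bases before its RefSeq start, and a TATA box at 30 bases. The latter pair of matches is not in the stretch shown above, since GENCODE starts the gene 93 bases earlier. S100a9 had a single C/EBP match, TTGCTTAA, 236 bases before its start and no other, so the promoters of the calprotectin subunits shared none of these motifs in this window. S100a4 had only a TATA box at 31 bases, and S100a6 had no match. Anxa1 had a match each to the C/EBP motif, the PU.1 motif and TATAAA, Anxa2 to AP-1 and TATAAA, and S100a11 had a PU.1 match and a pair of AP-1 matches. GENCODE starts Anxa1 at 20390944 on the minus strand, against 20390671 in RefSeq, so its matches all lie inside the GENCODE gene. For Anxa2 the starts are 69453620 and 69453683, so its TATAAA match, 17 bases before the RefSeq start, lies inside the GENCODE gene too. S100a1 and S100a13 had none. Their RefSeq starts, at 90514330 and 90514435, face away from each other, so their windows overlap and their values are not separate. CpG dinucleotides, the main site of the methylation that Tet2 acts on, numbered 2 in the windows of S100a8, S100a9, S100a4 and Anxa1, 3 in S100a6, 8 in S100a1, 9 in Anxa2, 11 in S100a11 and 13 in S100a13, beside a median of 6 over all windows. Among members that fell the number ran from 2 to 13, and of those that rose only S100a4 had a window. A relation of this number to the changes was not tested. These matches are descriptions of letters, and DNA methylation and factor binding were not measured in the data analysed here.

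Other S100 genes were mostly below the filter, while most other annexins passed it. Of the 10 other S100 entries in the table only S100a5 and S100pbp, the gene of a nuclear protein that binds S100P, passed the filter, and S100pbp changed by 0.12 (adjusted p = 0.31, limma). S100a2 had 1.19 and 0.96 TPM in WT and 0 and 0.31 TPM in the knockout-labelled libraries. S100a3, S100a7a, S100a14, S100a16, S100b and S100g stayed at or below 0.55 TPM, and S100z was listed at 0. Of 7 measured annexins beside the members, 3 fell, 1 rose and 3 did not pass (median 0.02), while 30.5% of all genes were called. Anxa4, a membrane-aggregating annexin, had 165.5 and 178.4 TPM in WT and 108.5 and 111.1 TPM in the knockout-labelled libraries. It fell by 0.64 (SE 0.046, adjusted p = 7.9e-04, limma), a larger change than that of either annexin member. Anxa11 changed by -0.24 (adjusted p = 0.013), Anxa3, the annexin of neutrophil granules, by -0.12 (adjusted p = 0.034) and Anxa6 by 0.28 (adjusted p = 0.0051, limma). The Anxa11 and Anxa3 calls were lost without knockout-labelled replicate 1 (adjusted p = 0.091 and 0.19), the Anxa3 call also without knockout-labelled replicate 2 (adjusted p = 0.20) and without WT replicate 1 (adjusted p = 0.070), and the Anxa6 call without knockout-labelled replicate 2 (adjusted p = 0.054). With spike-in scaling Anxa6 was at 0.17 and did not pass. Anxa5, the annexin used to stain dying cells, Anxa7 and Anxa9 had log2 changes of 0.10, 0.02 and 0.13 that did not pass, the first 2 below 0 with spike-in scaling. Anxa13 reached 0.11 TPM in a single library, and Anxa8 and Anxa10 were listed at 0.

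Ordered by mean TPM in WT, the members ran S100a9, S100a8, S100a11, S100a6, Anxa2, S100a4, Anxa1, S100a10, S100a1 and S100a13. In WT a step of 9.87-fold separated S100a8 from the next member and a step of 4.65-fold separated S100a10 from S100a1. Only S100a11 and S100a6, at 1812 ± 146.1 and 1770.3 ± 181 TPM (SD, n = 2), overlapped in their library values in WT. In the knockout-labelled group the step below S100a8 was 6.25-fold, S100a6 stood above S100a11 by 1.04-fold and S100a10 above Anxa1 by 1.07-fold, and no neighbours in the order overlapped. The order of levels thus differed between groups in a pair of places, S100a6 with S100a11 and S100a10 with Anxa1, of which the former overlapped in WT.

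The genes whose profile over the 4 libraries lay nearest to that of S100a9 were Ltf, Rflnb, Cd300c2, Galc and Abca13. Likeness was the Euclidean distance between log2(TPM + 1) values centred on each gene's mean, over 9326 genes with a mean of at least 5 TPM, and their distances ran from 0.018 to 0.037. Ltf, the gene of the neutrophil granule protein lactoferrin, had 484.9 and 484.1 TPM in WT and 254.8 and 256.9 TPM in the knockout-labelled libraries. S100a8 came at place 11, with a distance of 0.073. For Anxa2 the nearest were Mcee, Rab3gap1, Dhx32, Zfp507 and Selk, with distances from 0.0039 to 0.0097 and log2 changes of 0.05 to 0.06. With 4 libraries in 2 groups such a distance mostly compares the size of the group difference.

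Shared sequence could affect 2 members. Of the 50-base stretches of the annotated S100a4 transcripts 47.4% also occur in the overlapping gene Gm42674, and 41.1% of those of S100a11 occur in 3 processed pseudogenes. No entry of the table carries the name of any of these 4 genes, and how reads that match both were assigned is not given in the sources used here, so the levels of S100a4 and S100a11 are uncertain in both groups. The other 8 members shared no such stretch with an annotated transcript of another gene. Anxa2 overlaps the annotated genes Mir3109 and Gm16144, and Anxa1 overlaps 1500015L24Rik. Without the strand setting of the counting, how reads in these overlaps were assigned is unknown.

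**Figure D4:**
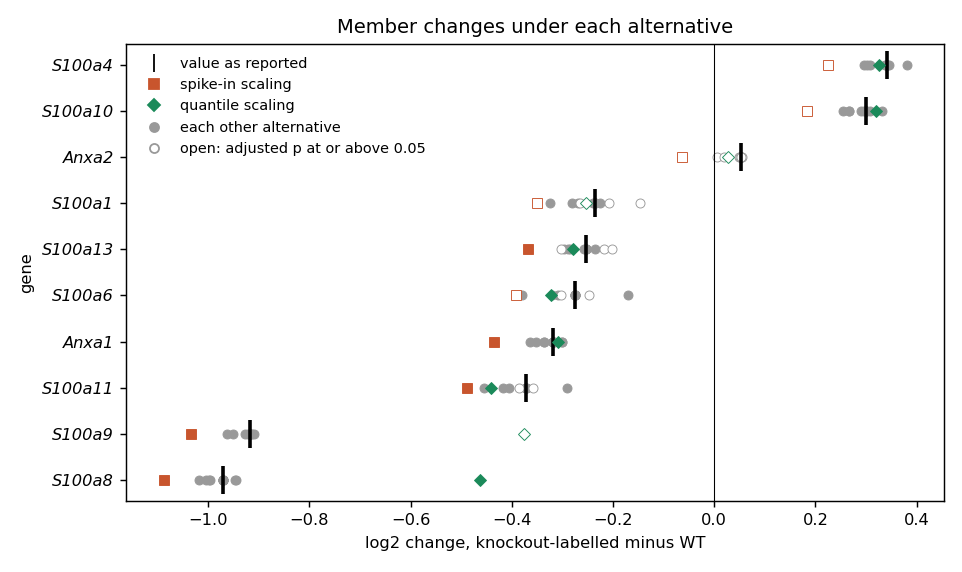
Log2 change of each member, knockout-labelled minus WT, under the reported settings (black tick) and 15 alternatives (points; open where the adjusted p was at or above 0.05). Quantile scaling moves S100a8 and S100a9 to -0.46 and -0.38, spike-in scaling moves every member downward, and only Anxa2 crosses 0.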

How the data were processed

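RNA-seq was analysed from 4 libraries of mouse leukemic cells, 2 WT and 2 knockout-labelled, grouped by their labels. The authors deposited a table of TPM, a unit read from the values, since all columns share the fixed total of TPM. STAR, RSEM and mm10 are named in the submitters' processing notes. Libraries came from a stranded mRNA kit, per the labels. For versions, annotation and strand setting, nothing is given in the sources used here. That total includes 92 ERCC spike-in entries, which were not tested. Genes that reached 1 TPM in 2 or more libraries were compared as log2(TPM + 1) with limma 3.58.1 in R 4.3.3 with a variance trend (2 residual and 3.51 prior degrees of freedom), and called at a Benjamini-Hochberg adjusted p under 0.05, two-sided. A log2 change understates the change of low genes. The fit was tested on simulated data in which few genes changed, as many up as down. That test covers neither a shift of scale nor a share of called genes like the 30.5% here. Ratios of partners were compared with exact permutation tests.

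Named were all members and family genes, up to 4 genes with the smallest p of each partner list, and the 5 genes nearest to S100a9 and to Anxa2, apart from 1 listed gene that is not reported here. The members and lists were chosen with earlier results of these data known. Coordinates came from GENCODE mouse release 21. Alternatives were a replicate block, 4 scalings, 2 filters, 2 pseudocounts, 2 variance models, a stricter threshold and leaving out each library. Of the entries, 27 carry names turned into dates and were not named.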

Additional observations from a re-analysis of the deposited data

How the results depend on the processing

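Counts of called genes over the whole table were 3606 as reported, 2108 with spike-in scaling, 1505 at an adjusted p under 0.01, and from 1239 to 3255 when a library was left out. Of the 10 members 9 were called as reported, 5 with spike-in scaling, and from 5 to 9 when a library was left out. Over the 10 members and 15 alternatives, 128 of 150 values kept their direction and their side of the threshold, 21 kept their direction and lost the call, and 1 reversed: Anxa2, at 0.05 as reported, was -0.064 with spike-in scaling. S100a8 and Anxa1 kept their calls throughout. The log2 difference of the S100a11 to Anxa1 ratio was 0.011 without WT replicate 2, against -0.05 as reported, and from -0.12 to 0.011 when a library was left out. The S100a8 to S100a9 and S100a10 to Anxa2 ratios kept their direction. The cause of these differences was not tested. The share of higher calls was 62.0% as reported, 48.2% with trimmed-mean scaling, 51.7% with TPM rescaled without members and neutrophil markers, and 29.9% with spike-in scaling.

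The replicate block called 3071 genes and 8 members, S100a6 being the member lost (adjusted p = 0.051), and 3 of the 14 intracellular partners in place of 6. Replicates with the same number did not deviate together (r = -0.11 across 11837 genes, which are not independent replicates), so the numbers do not show a pairing. Depth is unknown, which leaves low values such as those of S100a2 and S100a3 without a counting interval.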
